A study of Mus musculus with 4 samples.

Results

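The genes described here encode proteins that neutrophils make as they mature: Ngp, Camp, Ltf, Lcn2, S100a8, S100a9, Mmp8, Mmp9 and Fcnb. They were taken as every probe set whose single gene symbol in the platform annotation is one of these 9 names, which gave 10 probe sets out of 45037, for 9 of 18193 genes. Mmp9 had 2 probe sets and each other gene 1. The genes were chosen with their difference between Lyl1-null and wild-type cells known, so that difference is given below as a description, without a test.

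The cells were lymphoid-primed multipotent progenitors (LMPPs), early bone marrow progenitors of mice aged 6 to 8 weeks on a C57Bl/6 background, on 4 arrays of 1 library each. The cells had been sorted by flow cytometry as lacking lineage markers, carrying Kit and Sca-1, and high in Flt3. A group of 2 libraries came from wild-type mice and a group of 2 from Lyl1-null mice, which lack the basic helix-loop-helix factor Lyl1. Neither the number of mice behind a library nor the piece of Lyl1 that the null allele removes is given in the sources used here, so the spread between the libraries of a group may be technical.

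Neutrophil granules are filled in waves while the cell matures. Primary granule proteins such as myeloperoxidase are made first, in promyelocytes, and secondary granule proteins such as lactoferrin and cathelicidin are made later, in myelocytes and metamyelocytes, under the factor C/EBP epsilon. Gelatinase granules, which hold Mmp9, follow, and the S100a8 and S100a9 proteins lie mainly in the cytosol, so the set reaches beyond secondary granules in the strict sense. LMPPs come before all of these stages and normally do not make granule proteins of the late waves in quantity.

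Values are log2 expression values made with robust multi-array averaging (RMA), and each group had n = 2. A value of 5.69, the median over all probe-set means, was used as a filter on dim signal. Lyl1 itself read 12.34 and 12.29 on the wild-type arrays and 5.14 and 10.32 on the arrays labelled Lyl1-null replicate 1 and replicate 2. The array labelled Lyl1-null replicate 2 thus kept 25.1% of the wild-type mean, against its label. It also stood apart from the rest, with 518 to 859 genes at least 2-fold away from each other array, against 42 to 128 among the other 3. Of the sorting and LMPP markers measured, all 10 lay above the filter, with Flt3, the receptor used for the sort, at 11.92 and 12.12 in wild type and at 11.80 and 11.26 in the arrays labelled Lyl1-null. Of 11 measured genes on a list of lineage genes, 6 lay below the filter on every array, among them Itgam, the Mac-1 integrin chain of mature myeloid cells. The means of the other 5 reached it. Cd4 read 6.51 and 6.37 in wild type and 6.70 and 6.85 in the arrays labelled Lyl1-null. Cd8a read 5.72 and 5.75, then 5.90 and 6.47. Of all 18193 genes, 11196 had a mean that reached the filter. The share below it on every array was not computed, so nothing is read from the 6. Ptprcap, on the same list, was bright, at 12.12 and 12.41 in wild type and 12.28 and 10.73 in the arrays labelled Lyl1-null. The granule genes are therefore shown for each array labelled Lyl1-null on its own. Differences of other genes are group means unless both arrays are given.

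The stretch just before the start of a gene is where factors such as C/EBP proteins bind, so the 250 bases before the starts of the 4 granule genes with the largest differences are shown here. They are printed 5′ to 3′ on the strand of the gene, from RefSeq on GRCm38.p6: chr9:110419558-110419807 on the + strand for Ngp, chr9:109849457-109849706 on the - strand for Camp, chr9:111019042-111019291 on the + strand for Ltf and chr3:90668821-90669070 on the + strand for S100a8. Capitals mark each match to TTNNGNAA, a loose form of the C/EBP site, on either strand.
Ngp: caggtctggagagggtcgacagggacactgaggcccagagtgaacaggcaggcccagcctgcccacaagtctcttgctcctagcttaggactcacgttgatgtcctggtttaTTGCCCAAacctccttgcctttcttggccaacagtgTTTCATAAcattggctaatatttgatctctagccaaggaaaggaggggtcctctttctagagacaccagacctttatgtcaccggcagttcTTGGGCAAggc
Camp: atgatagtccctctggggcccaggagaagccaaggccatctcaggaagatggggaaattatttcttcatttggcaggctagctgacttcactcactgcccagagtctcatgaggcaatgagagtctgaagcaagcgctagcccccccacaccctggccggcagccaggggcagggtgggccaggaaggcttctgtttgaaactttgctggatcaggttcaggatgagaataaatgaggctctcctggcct
Ltf: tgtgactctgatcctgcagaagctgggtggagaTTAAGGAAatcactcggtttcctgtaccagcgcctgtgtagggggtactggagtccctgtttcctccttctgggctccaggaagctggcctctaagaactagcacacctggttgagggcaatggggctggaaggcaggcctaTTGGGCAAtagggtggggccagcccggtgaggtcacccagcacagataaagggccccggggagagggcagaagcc
S100a8: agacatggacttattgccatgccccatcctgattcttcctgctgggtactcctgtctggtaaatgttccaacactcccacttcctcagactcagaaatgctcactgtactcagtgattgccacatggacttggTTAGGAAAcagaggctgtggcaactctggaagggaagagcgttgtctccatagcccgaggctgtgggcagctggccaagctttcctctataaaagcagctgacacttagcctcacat

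The Ngp stretch held 3 matches, starting 138, 102 and 11 bases before the gene's start. The Ltf stretch held 2, at 217 and 75 bases, and the S100a8 stretch 1, at 117 bases. Camp had none in this window. Promoter sequences were matched for 8 of the 9 genes, all but Mmp9. TTNNGNAA was found in 7 of these 8, against 36.8% of all 32851 promoter stretches of the same length. The narrower form TTGCNNAA, whose matches are all matches to the first motif, was in 6 of 8, namely Ngp, Ltf, Lcn2, S100a9, Mmp8 and Fcnb, against 9.56% of all. A match is a run of letters, and no binding was measured.

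Other motifs were searched on both strands in the same windows. The full palindrome TTGCGCAA (0.164% of all stretches) was in 0 of 8. GAGGAA, a core of sites for the myeloid factor PU.1, was in 4 of 8 (23.3% of all), and TGTGGT, a core of Runx sites, in 1 (14.0%). AATCA, the core bound by Gfi1, was in 3 (33.7%). The E-box CANNTG, the kind of site that Lyl1 binds with its E protein partners, was in 5 of 8 (66.2%), while its forms CAGATG and CAGCTG were in 1 each (14.4% and 13.001%). Of motifs that overlap one another at the TATA box, TATAAA was in 1 (12.4%), TATAA in 2 (22.8%) and ATAAA in 5 (37.3%).

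Both arrays labelled Lyl1-null lay above both wild-type arrays for all 10 probe sets of the 9 genes. Over all 18193 genes, 28.4% were ordered in this way. At least 2-fold higher with this order were 5 of the 9, Ngp, Camp, S100a8, Ltf and Lcn2, against 0.236% of all genes. Since the genes were picked on this very difference, nothing is read from these counts. The median difference over the 9 genes was 1.36 on the log2 scale, 1.73 for replicate 1 of the arrays labelled Lyl1-null and 0.986 for replicate 2. Over the 11196 genes whose mean reached the filter, the median difference was −0.05. In sorted cells measured in bulk, more cells of a type and more RNA per cell cannot be told apart.

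**Figure D1:**
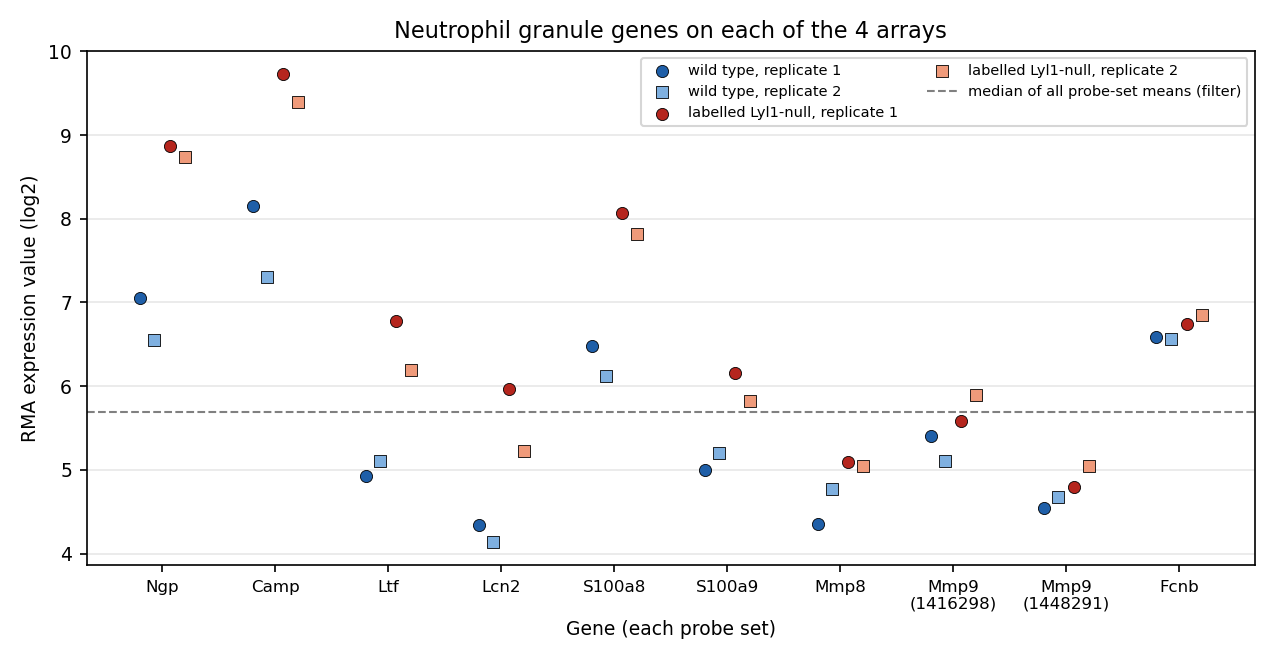
RMA expression values (log2) of the 10 probe sets of the 9 granule genes on each of the 4 arrays. Each point is 1 array (blue for wild type, red for the arrays labelled Lyl1-null), and the dashed line is the filter at 5.69. Both red points lie above both blue points for every probe set, with wide gaps for Ngp, Camp, Ltf, Lcn2 and S100a8 and narrow ones for Mmp9 and Fcnb.

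Ngp and Camp encode related proteins of secondary granules. Camp gives the antimicrobial peptide cathelicidin, and Ngp, neutrophilic granule protein, shares the cathelicidin fold. Ngp (1418722_at) read 7.05 and 6.55 in the wild-type arrays and 8.87 and 8.73 in the arrays labelled Lyl1-null. Its difference was 1.997 (SE 0.21), or 3.99-fold, and it was nearly as large in the array labelled Lyl1-null replicate 2 (1.93) as in the one labelled replicate 1 (2.06). The lowest value in the arrays labelled Lyl1-null stood 1.68 above the highest wild-type one.

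Camp (1419691_at) read 8.15 and 7.30 in wild type and 9.73 and 9.40 in the arrays labelled Lyl1-null. Its difference was 1.84 (SE 0.31), or 3.57-fold. Of the 10 probe sets, Camp had the widest gap between the wild-type arrays, 0.86, and its groups still stood 1.24 apart.

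Ltf and Lcn2 encode secondary granule proteins that withhold iron from microbes. Lactoferrin, the product of Ltf, binds iron itself, and lipocalin 2 binds the siderophores with which bacteria collect it. Ltf (1450009_at) read 4.93 and 5.10 in wild type and 6.77 and 6.19 in the arrays labelled Lyl1-null. Ltf was therefore below the filter on both wild-type arrays and above it on both others, and its mean of 5.75 passed only through the latter. Its difference was 1.47 (SE 0.23), made of 1.76 for replicate 1 and 1.18 for replicate 2 of the arrays labelled Lyl1-null.

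Lcn2 (1427747_a_at) read 4.34 and 4.14 in wild type. Of the arrays labelled Lyl1-null, replicate 1 read 5.97 and replicate 2 read 5.23, still below the filter. The difference of 1.36 (SE 0.27) thus came with the widest gap between the arrays labelled Lyl1-null among the 10 probe sets, 0.74.

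S100a8 and S100a9 encode the chains of calprotectin, a calcium- and zinc-binding dimer that makes up much of the protein in neutrophil cytosol. S100a8 (1419394_s_at, a probe set that the array's naming marks as shared with similar transcripts) read 6.48 and 6.12 in wild type and 8.06 and 7.82 in the arrays labelled Lyl1-null. Its difference was 1.64 (SE 0.20), or 3.13-fold. S100a9 (1448756_at) read 4.996 and 5.21 in wild type and 6.16 and 5.83 in the arrays labelled Lyl1-null, a difference of 0.89 (SE 0.19). For both chains the groups did not overlap, and S100a9 was below the filter in wild type.

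Mmp8, Mmp9 and Fcnb differed less. Mmp8, the neutrophil collagenase of secondary granules, read 4.36 and 4.77 in wild type and 5.10 and 5.04 in the arrays labelled Lyl1-null, all below the filter. Its difference was 0.51 (SE 0.19), and its wild-type arrays themselves were 0.41 apart. Mmp9 is gelatinase B of the gelatinase granules. Its probe set 1416298_at read 5.40 and 5.11 in wild type and 5.59 and 5.89 in the arrays labelled Lyl1-null (difference 0.49, SE 0.19). The second one, 1448291_at, read 4.54 and 4.68 against 4.79 and 5.05 (difference 0.31, SE 0.17). Fcnb, ficolin B, is a myeloid lectin that can start the complement cascade. It was above the filter on every array, at 6.58 and 6.56 in wild type and 6.74 and 6.85 in the arrays labelled Lyl1-null, a difference of 0.22 (SE 0.15).

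Dim probe sets as a whole were shifted upward, by a median of 0.059 in replicate 1 and 0.21 in replicate 2 of the arrays labelled Lyl1-null over the 22518 probe sets below the filter. Brighter probe sets had medians of −0.02 and −0.10. Mmp8 stood at 0.54 and 0.48 on these arrays, the first Mmp9 probe set at 0.33 and 0.64 and the second one at 0.18 and 0.43. All lay above the median of dim probe sets on the same array. Many dim probe sets lie above that median, and the genes were chosen on this difference, so nothing is read from it. The part of the shift in their differences was not tested. After quantile normalization, which gives all arrays the same distribution, Mmp8 stood at 0.47 and 0.28 and the Mmp9 probe sets at 0.29 and 0.52 and at 0.12 and 0.23. Fcnb, which is not dim, went from 0.17 and 0.28 to 0.20 and 0.39. Ngp (2.10 and 2.11), Camp (2.07 and 1.87), S100a8 (1.77 and 1.68) and Ltf (1.71 and 1.10) had differences above 1 in both arrays after it, and Lcn2 had 1.67 and 0.79.

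**Figure D2:**
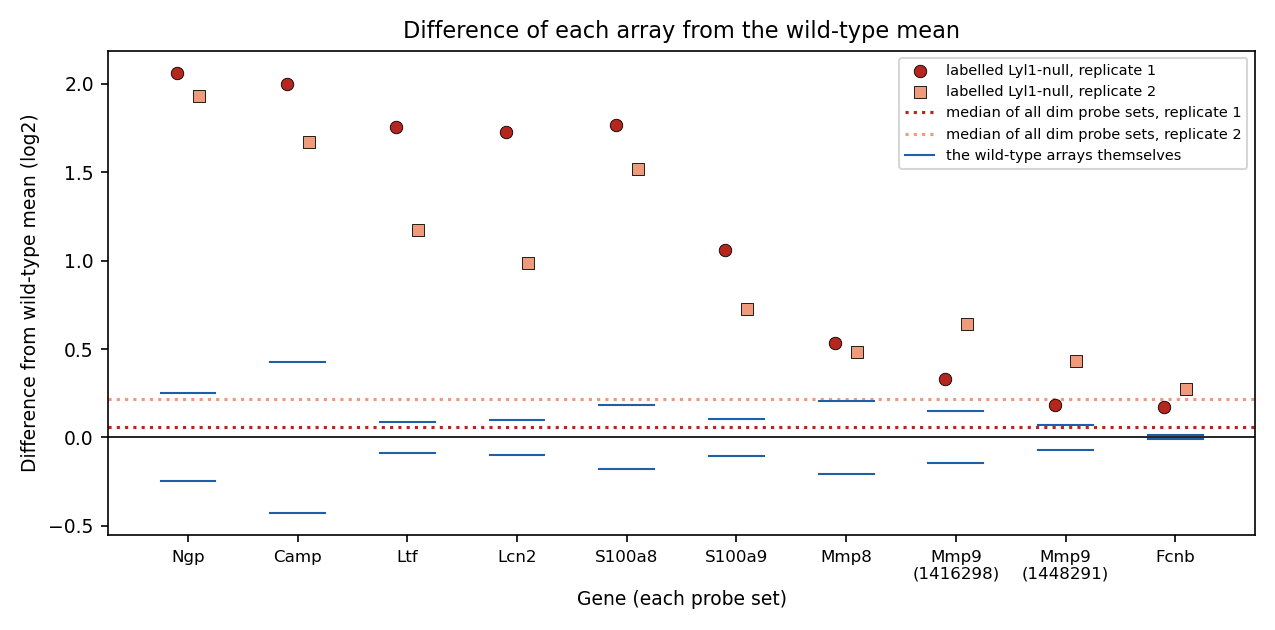
Difference of each array labelled Lyl1-null from the wild-type mean (log2) for the 10 probe sets. Blue bars show where the wild-type arrays lie about their mean, and dotted lines the median difference of all dim probe sets in each array. Ngp, Camp and S100a8 stand above 1.5 in both arrays and far outside the blue bars, while Mmp8, both Mmp9 probe sets and Fcnb all stay below 0.7.

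The 2 arrays labelled Lyl1-null differed between the genes. For 7 of the 9 genes, replicate 1, where Lyl1 was below the filter, read higher than replicate 2, where Lyl1 stood at 10.32. Mmp9 and Fcnb were the exceptions. The share of all genes with this order was not computed, so nothing is read from the count. Over all tested genes the median difference from wild type was −0.009 in replicate 1 and −0.08 in replicate 2. Over dim probe sets it was 0.059 and 0.21. The gap was 0.13 for Ngp, 0.25 for S100a8 and 0.33 for both Camp and S100a9, and it was 0.58 for Ltf and 0.74 for Lcn2. With 1 array of each kind, the part of the Lyl1 signal in this order was not tested.

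The wild-type arrays also differed. Replicate 1 read higher than replicate 2 for 6 of 10 probe sets, by 0.86 for Camp, 0.50 for Ngp and 0.36 for S100a8. It read lower for Ltf (−0.18) and S100a9 (−0.21). Some erythroid and myeloid genes were higher on the same array too. On wild-type replicates 1 and 2, the red cell anion exchanger Slc4a1 read 7.91 and 5.48 and the carbonic anhydrase gene Car1 8.57 and 7.18. The macrophage gene Cd5l read 7.40 and 6.00 on them, and the Fc receptor gene Fcgr3 8.13 and 6.91. The haemoglobin gene Hba-a1 (4.06 and 4.09) and the receptor genes Csf1r (10.56 and 10.71) and Csf3r (8.56 and 9.16) were lower on replicate 1. The part of other cells in the wild-type spread was not tested. For each of the 10 probe sets the difference between the groups was larger than the gap between the wild-type arrays. The genes were chosen on that difference, and the share of all probe sets was not computed, so nothing is read from this count.

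Of the 9 genes, 5 reached the filter (Ngp, Camp, Ltf, S100a8 and Fcnb), and no test is given for them. In the limma fit that serves for all other genes, 0.00893% of the 11196 genes tested passed the adjusted threshold of 0.05, and 0% passed it upward. An unadjusted p under 0.05 was reached by 6.84% of genes, and by 2.17% upward. Calls rested on the libraries used. Without the array labelled Lyl1-null replicate 2, 0.0893% of genes passed upward and 0.107% downward, and without the one labelled replicate 1, 3.94% passed upward and 10.8% downward.

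Position on the chromosome was not part of the choice. Camp, Ngp and Ltf follow each other in this order on chromosome 9 in the RefSeq table, with 8 other protein-coding genes between Camp and Ngp and 20 between Ngp and Ltf. Of these 28 genes 26 had a probe set, and their differences, looked at after those of the granule genes were known, ran from −0.40 to 0.32 apart from Tmie. Tmie, an inner ear membrane protein gene, read 7.02 and 6.24 in wild type, then 6.75 and 9.98 on replicates 1 and 2 of the arrays labelled Lyl1-null. In limma, 0 of 17 tested neighbours passed and 0 had an unadjusted p under 0.05. Nbeal2, which encodes a protein needed for platelet and neutrophil granules, lies between Ngp and Ltf and read −0.40, with 0.05 and −0.85 on replicates 1 and 2 of the arrays labelled Lyl1-null.

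**Figure D3:**
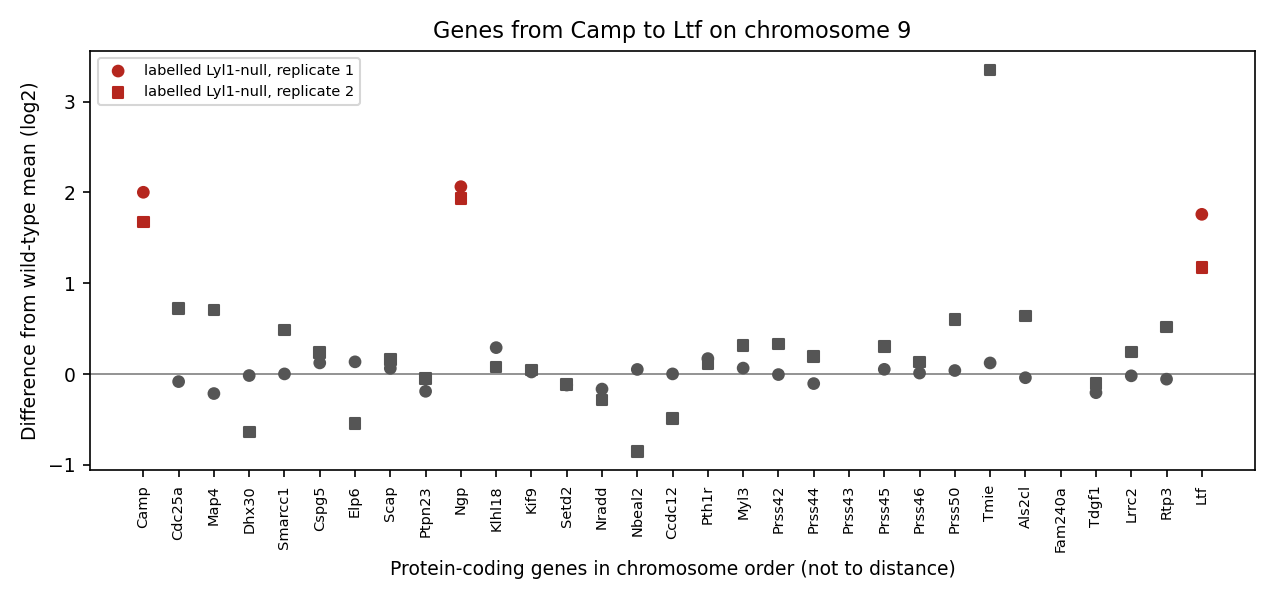
Difference from the wild-type mean (log2) in the arrays labelled Lyl1-null (circles replicate 1, squares replicate 2) for the protein-coding genes from Camp to Ltf, in chromosome order and not to distance. Camp, Ngp and Ltf (red) lie above 1 in both arrays, and among the other genes (grey) only Tmie does so in 1 array.

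S100a8 and S100a9 are next to each other on chromosome 3, with 0 protein-coding genes between them. Of 9 other S100a genes measured, the differences ran from −0.26 to 0.42 with a median of 0.14. The calcium-binding genes S100a4 and S100a6 read −0.26 and −0.08. In limma, 0 of the 6 that were tested passed, and 0 had an unadjusted p under 0.05. Among 16 other matrix metalloproteinases, 0 of 6 tested passed and 2 had an unadjusted p under 0.05, both with lower values. These were Mmp2, gelatinase A, at 8.99 and 8.91 in wild type and 7.76 and 7.58 in the arrays labelled Lyl1-null (−1.28), and Mmp11 (−0.55).

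Other genes of secondary and later granules or of neutrophil secretion were read from a list that did not include the 9. Of its 25 measured genes 12 were tested, and 0 passed in limma over all genes. At an unadjusted p under 0.05, 2 were higher and 2 lower. The list's median difference was 0.15, with 8 positive and 4 negative, against −0.05 over all tested genes. By array labelled Lyl1-null, the list's median was 0.21 in replicate 1 and 0.05 in replicate 2. Chil3, which encodes the chitinase-like protein Ym1 made by neutrophil precursors, came nearest to the 9 genes. It read 7.51 and 6.97 in wild type and 8.60 and 8.49 in the arrays labelled Lyl1-null, a difference of 1.30 (SE 0.23, limma adjusted p = 0.440). The groups did not overlap for Chil3, and its wild-type arrays were 0.55 apart, again with replicate 1 above replicate 2. Without the array labelled Lyl1-null replicate 1, 1 of the 12 passed upward (Chil3) and 1 downward (Anxa1), beside 3.94% and 10.8% of all genes, and without the one labelled replicate 2 the adjusted p of Chil3 in limma was 0.192.

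Padi4, the enzyme that citrullinates histones in neutrophils, had a difference of 0.45. B4galt6, a glycolipid enzyme, was at −0.48 and Anxa1, the annexin of gelatinase granules, at −0.52. Hp, which encodes the secreted haemoglobin scavenger haptoglobin, was at 0.21. Cd177, a surface protein of mature neutrophils, and Olfm4, a protein of a subset of secondary granules, lay below the filter on every array, with differences of 0.19 and 0.43. Cebpe, the gene for C/EBP epsilon, was not analysed here.

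The list of primary granule genes shares Nkg7 with the list of T and NK cell genes and Mpo with the sorting and LMPP markers. All 11 of its measured genes were tested. The median difference was 0.0019 (0.12 in replicate 1 and −0.02 in replicate 2 of the arrays labelled Lyl1-null), 6 were positive and 5 negative, and 0 passed in limma, with 0 higher and 2 lower at an unadjusted p under 0.05. Those were Mpo, myeloperoxidase, at 11.79 and 12.30 in wild type and 11.39 and 10.68 in the arrays labelled Lyl1-null (−1.01, SE 0.30, limma adjusted p = 0.644), and the protease gene Ctsg (−0.53). The serine protease genes Prtn3 and Elane read −0.11 and −0.02 and the granule proteoglycan gene Srgn −0.10. Gstm1, which gave the list's median, read 0.0019. Ms4a3 (0.37), Nkg7 (0.33), Ctsc, the activator of granule proteases (0.27), Plac8 (0.20) and Cst7 (0.13) were positive. Without the array labelled Lyl1-null replicate 1, 1 of the 11 passed downward (Mpo), beside 10.8% of all genes.

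**Figure D4:**
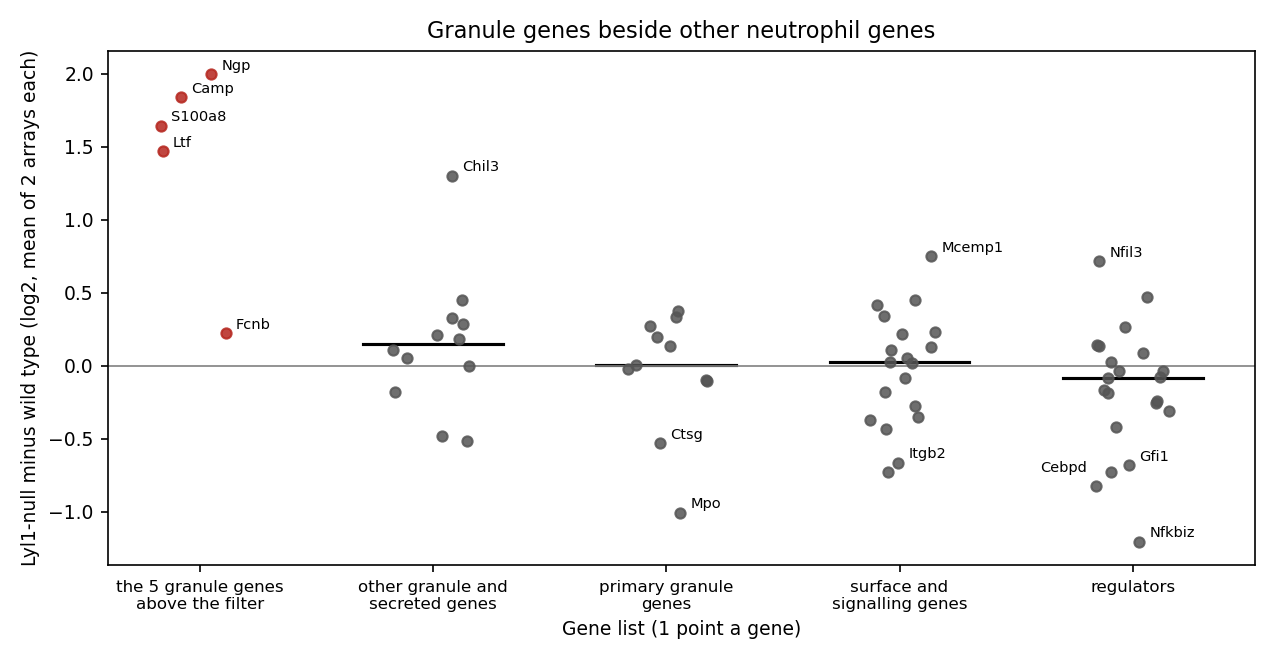
Difference between the groups (log2, labelled Lyl1-null minus wild type, means of 2 arrays each) for the 5 granule genes above the filter and for 4 lists of other neutrophil genes, 1 point a gene. Black bars are the medians of the 4 lists, from −0.09 for the regulators to 0.15 for other granule and secreted genes. Chil3 stands at 1.30, and Mpo and Nfkbiz lie below −1. The 5 granule genes were chosen on this difference, so nothing is read from where they stand beside the lists. Ltf among them passed the filter only through the arrays labelled Lyl1-null.

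Regulators of granulocyte genes include the C/EBP factors and Gfi1. Of 21 tested, 7 were positive and 14 negative, with a median of −0.09, and 0 passed in limma, with 1 higher and 3 lower at an unadjusted p under 0.05. Nfil3, a basic leucine zipper factor, was the higher one (0.72). The lower ones were Gfi1, a repressor needed for neutrophil development (−0.68), Nfkbiz, an inhibitor-like partner of NF-kB (−1.20), and Cebpd (−0.73). Gfi1 stood at −0.68 and −0.69 on replicates 1 and 2 of the arrays labelled Lyl1-null, and Nfkbiz at −0.60 and −1.81. Of the other C/EBP factors, Cebpa read −0.07, Cebpb −0.25 and Cebpg −0.04. For Cebpd, replicate 1 of the arrays labelled Lyl1-null stood at −0.37 and replicate 2 at −1.08. Without the array labelled Lyl1-null replicate 1, where 3.94% of all genes passed upward and 10.8% downward, 1 of 21 regulators passed upward (Runx1) and 4 downward (Cebpd, Junb, Nfkbiz and Per3).

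Surface and signalling genes of mature neutrophils gave the cell type check. Of 27 measured, 7 lay below the filter on every array, among them Cxcr2, the chemokine receptor of mature neutrophils (3.84 and 3.87 in wild type, 3.94 and 3.92 in the arrays labelled Lyl1-null), and Itgam (3.56 and 3.45, then 3.54 and 3.98). The share of all genes below it on every array was not computed, so nothing is read from the 7. The summed log2 values of the 27 were 192.1 and 190.4 in wild type and 193.2 and 192.5, both higher, in the arrays labelled Lyl1-null. For the 25 other granule and secreted genes they were 168.0 and 167.7, then 171.9 and 172.4. Such a sum is not an amount of RNA. The sums include dim genes, and dim probe sets as a whole were shifted upward on replicates 1 and 2, by medians of 0.059 and 0.21. The part of that shift in the sums was not tested. Of 19 tested, 11 were positive and 8 negative (median 0.02) and 0 passed in limma, with 1 higher and 1 lower at an unadjusted p under 0.05. These were Mcemp1, a myeloid membrane protein, at 0.75, and Itgb2, the shared chain of leukocyte integrins, at −0.66. The receptor for granulocyte colony-stimulating factor, Csf3r, read −0.35, Alox5, the leukotriene enzyme, 0.45, and Il1r2, a decoy receptor of neutrophils, 0.34. Fpr2, whose mean was too dim to be tested, read 5.35 and 5.34 in wild type and 5.74 and 5.84 in the arrays labelled Lyl1-null. It thus lay below the filter on both wild-type arrays and above it on both others (0.45). Il1b and Fcgr4, below the filter on every array, had differences of 0.51 and −0.04. Without the array labelled Lyl1-null replicate 1, 1 of the 19 passed upward (Mcemp1) and 4 downward (Itgb2, Clec4e, Mxd1 and Tlr2), beside 3.94% and 10.8% of all genes.

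Genes of other cell types stood beside these values as follows. Monocyte and macrophage genes had a median of −0.24 over 11 tested, with 0 past the threshold in limma and 0 higher and 2 lower at an unadjusted p under 0.05 (Ms4a6b, −0.77, and Ms4a6c, −0.58). Their summed log2 values over 15 measured genes were 103.4 and 101.4 in wild type and 99.1 and 101.7 in the arrays labelled Lyl1-null. Csf1r, the receptor of the monocyte line, read 10.56 and 10.71, then 10.32 and 10.47. Vcam1, an adhesion molecule of tissue macrophages, was at 0.46. Adgre1, a macrophage marker, was below the filter on every array.

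The other cell lists also had 0 genes past the threshold in limma. Erythroid genes had 0 higher and 2 lower at an unadjusted p under 0.05, with Car2, a carbonic anhydrase, at −0.86 and Car1 at −1.14. The transferrin receptor gene Tfrc read 0.23. Their sums over 9 measured genes were 70.3 and 63.0 in wild type and 64.4 and 67.0 in the arrays labelled Lyl1-null. In the eosinophil, basophil and mast cell list, the only gene at an unadjusted p under 0.05 was the basophil protease gene Mcpt8 (−0.80), while the eosinophil granule genes Prg2 and Epx read 0.23 and 0.22 and Gata1, a factor of several lineages, −0.12. T and NK cell genes had 1 such gene, Klrd1 (−0.76), beside the chemokine gene Ccl5 (−0.68) and Cd4 (0.33). Platelet genes had 1, the chemokine gene Pf4 (−0.99), and Itga2b, the platelet integrin chain, read 0.38 and Gp9, of the von Willebrand factor receptor, −0.27. B and plasma cell genes had 1, the surrogate light chain gene Vpreb1 (0.56), beside Igll1 (−0.50), Cd79a (0.36) and Xbp1 (0.14). The list of lineage genes had 0 such genes, and Cd8a read 0.45. Ptprcap, a partner of the CD45 phosphatase, read −0.76, with 0.01 and −1.53 on replicates 1 and 2 of the arrays labelled Lyl1-null. Of the sorting and LMPP markers 0 of 10 passed, 2 were positive and 8 negative, and 1 higher and 3 lower had an unadjusted p under 0.05. The higher one was Il7r (0.65), and the lower ones were Cd48 (−1.03), Kit (−0.90) and Mpo (−1.01). Cd34, at −0.56, and Flt3, at −0.49, were not among them. Without the array labelled Lyl1-null replicate 1, 5 of the 10 sorting and LMPP markers passed downward (Kit, Cd34, Flt3, Cd48 and Mpo), beside 10.8% of all genes. In the other cell lists Ms4a6b, Car2, Mcpt8, Klrd1, Ccl5, Ptprcap and Pf4 then passed downward and Vcam1, Cx3cr1 and Cd8a upward, where 3.94% of all genes passed upward. The part of other cells in the granule gene values was not tested.

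The genes whose values over the 4 arrays ran closest to those of the granule genes were found by distance. The profile was the median over the 5 granule genes above the filter, each centred on its own mean, and distance was the root mean square difference over the 4 arrays among 11191 other genes. Tfcp2l1, a transcription factor, was nearest (0.083 on the log2 scale), followed by the T-cell surface gene Thy1 (0.20), the receptor phosphatase gene Ptprf (0.21), Chil3 (0.22) and the phosphodiesterase gene Pde2a (0.24). Tfcp2l1 read 5.15 and 4.94 in wild type and 7.04 and 6.64 in the arrays labelled Lyl1-null. Tfcp2l1, and Ltf among the 5 granule genes, thus passed the filter only through the arrays labelled Lyl1-null. The profile came from genes chosen on the group difference, so the genes near it share that upward difference, and nothing more is read from their nearness. Of these 5 genes, Chil3 alone belongs to the lists of neutrophil genes.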

How the data were processed

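RNA of sorted cells was amplified, labelled with biotin and hybridised to expression arrays, per the labels' protocols. The authors computed the deposited log2 values with RMA, per the submitters' processing notes. The sources used here do not give its version or say whether the 4 arrays were normalized together. The array medians were 5.65, 5.65, 5.68 and 5.76, and precision is limited by how few arrays there are.

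Of 45037 probe sets, 34945 carried 1 gene symbol, 932 several and 9160 none. All 9 granule genes matched RefSeq gene identifiers of GRCm38.p6. Each gene was tested on its probe set with the highest mean, if at or above 5.69, the 50th percentile of probe-set means. The groups were compared with limma 3.58.1 in R 4.3.3 (lmFit and eBayes, two-sided, Benjamini-Hochberg over 11196 genes, threshold 0.05). The fit was checked on simulated data with independent, equal noise on all arrays. That check does not cover an array that stands apart, as the one labelled Lyl1-null replicate 2 did. Every adjusted p comes from limma. SEs of the granule probe sets come from a limma fit over all 45037, and those of other genes from the fit over 11196. Probe sets of several or no genes were left out of gene tests.

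The granule genes, gene lists and motifs were chosen with earlier results of these data known. Named were the 9 genes with every probe set, Lyl1, in every list the genes that passed or else the 3 with the smallest p, all primary granule and C/EBP genes, the 2 highest in lists of other cells, the markers Flt3, Kit and Cd34, and the 5 nearest profiles. Anxa1, Hp, Cd177, Olfm4, Nbeal2, Tmie, Slc4a1, Csf3r, Il1r2, Cxcr2, Itgam, Fpr2, Il1b, Fcgr4, Adgre1, the genes named only in fits without 1 array, and the S100a and Mmp families were named after their values were seen. So were Cd5l, Fcgr3 and Hba-a1. Alternatives were the filter, the treatment of several probe sets, quantile normalization, median centring, a trended prior, a replicate block and leaving out each library.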

Additional observations from a re-analysis of the deposited data

How the results depend on the processing

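The filter, the prior and the block leave the difference of a probe set as it is, and with groups of 2 that do not overlap, leaving out 1 library cannot turn it. Quantile normalization and median centring can move it. With these, Fcnb went from 0.22 to 0.29 and 0.15, and all 10 probe sets stayed positive. The moves of Fcnb exceeded the gap between its wild-type arrays (6.58 and 6.56). They were smaller than the gap between its arrays labelled Lyl1-null (6.74 and 6.85). The median over the 9 genes was 1.12 over all probe sets, 1.23 with quantile normalization and 1.28 with median centring, and it ran from 0.986 to 1.73 with 1 library left out.

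The count of genes past the threshold was 1 in the fit as designed. It was 4 without the filter, 2 with every probe set, 0 with the mean of probe sets in limma, 2 with quantile normalization, 2 with median centring and 4 with a trended prior. With 1 library left out it ran from 1 to 1652. The lone library of a group was taken to be as variable as the other group. Genes of the other lists past the threshold numbered 0 with all libraries and from 0 to 27 with 1 left out, the 27 without Lyl1-null replicate 1. The causes were not tested.

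The replicate numbers share only a number in the labels. With the replicate block 3 genes passed. Deviations of same-numbered arrays correlated at −0.41 over genes, and a crossed replicate block, added after the data had been seen, gave 1. Dim signal limits Lcn2, S100a9, Mmp8 and Mmp9, whose means lay below the filter.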
